A study of Mus musculus with 12 samples.

Results

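Transcripts of the enzymes that trim and extend glycans in the Golgi were examined in mouse oocytes at the germinal vesicle (GV) stage. The genes were chosen by symbol, from the Mgat, Man1 and Man2, B4galt, B3gnt, B3galt, St3gal, St6gal, St8sia, Galnt, Fut, Chsy, Chpf, Ext, Xylt, C1galt1 and Gcnt families. The deposited table holds 24255 genes, of which 106 matched these names. Of these, 50 reached 1 FPKM or more in 1 or more of the 12 libraries and are the members described here. FPKM is the number of sequenced fragments scaled by transcript length and by library, so it can be compared between genes. How the deposited values were scaled between libraries is not fully described in the sources used here. The same minimum was met by 11233 genes of the whole table. Of the 50 members, 49 are protein-coding, and Man2c1os is an antisense RNA that makes no enzyme. The members closest to the minimum were B4galt3 and B4galt1, with highest values of 1.02 and 1.10 FPKM. Just below it were Gcnt3, with a highest value of 0.989 FPKM, and Xylt2, with 0.961 FPKM.

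RNA-Seq was run on pools of 20 oocytes, with 3 libraries in each of 4 groups. WT oocytes came from wild-type females. MUT oocytes came from females homozygous for the D166G missense mutation of Dpagt1, which every cell of the animal carries. GcKO oocytes came from Dpagt1 F/F Gdf9 CRE/+ females, in which the Gdf9 promoter drives Cre in oocytes from the primordial follicle stage on. AmcKO oocytes came from Dpagt1 F/F Amhr2 CRE/+ females, in which the Amhr2 promoter drives Cre in granulosa cells, so that by design the oocytes keep their own Dpagt1. All females were C57BL/6 mice of 3 weeks, primed with 5 IU of PMSG, and oocytes were collected 46 h later. Oocytes of Dpagt1 F/F females without Cre were not analysed here. The labels do not say whether the libraries of a group came from separate animals, so a p-value measures only the spread between these libraries. The WT and AmcKO libraries are numbered 4 to 6 and the MUT and GcKO libraries 1 to 3. A batch that followed the numbers cannot be told apart from the difference of MUT and GcKO from WT or from AmcKO.

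An N-glycan is started in the endoplasmic reticulum by DPAGT1, which places GlcNAc-phosphate on dolichol, and is moved as a block to nascent proteins. In the Golgi, mannosidases trim it, GlcNAc-transferases of the Mgat family set its branches, and fucosyl-, galactosyl- and sialyltransferases finish it. The same compartment builds mucin-type O-glycans, begun by the Galnt enzymes, and the chondroitin and heparan sulfate chains of proteoglycans. In oocytes, the zona pellucida glycoproteins carry both N- and O-glycans.

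Dpagt1 itself was listed at 0 in all 3 WT libraries and all 3 AmcKO libraries. MUT replicates 1 to 3 held 0.878, 0.408 and 0.985 FPKM, and GcKO replicates 1 to 3 held 0, 0.366 and 0 FPKM. At this level the transcript cannot check the genotypes. The 12 oocyte markers were above 0 in every group. Their summed level was 43098 to 48525 FPKM for WT, 18232 to 18889 for MUT, 16463 to 23564 for GcKO and 33162 to 43620 for AmcKO. It was lower in MUT and GcKO, as were the abundant members described below. Dppa3, the highest in every library, held 26356 to 30143 FPKM for WT, 7935 to 8755 for MUT and 8055 to 11960 for GcKO. Not every marker fell. In GcKO, Nobox was at 62.1 to 79.2 FPKM and Kit at 18.7 to 32.0 FPKM, above every WT value. The granulosa markers Foxl2, Amh and Amhr2 were listed at 0 in all 12 libraries. The summed granulosa list was 17.6 to 23.1 FPKM for WT, 16.5 to 27.4 for MUT, 15.6 to 28.9 for GcKO and 12.7 to 24.8 for AmcKO, and Cyp19a1 was its highest gene in every library. Of its 14 genes, 10 were listed at 0 in all WT libraries, 4 in all MUT libraries, 4 in all GcKO libraries and 7 in all AmcKO libraries. Inha was listed at 0 in WT and held 5.44, 1.13 and 5.44 FPKM in MUT, and Hsd17b1 was listed at 0 in WT and held 2.06, 0.642 and 3.09 FPKM in MUT. Cyp19a1 went the other way, at 17.1, 20.1 and 15.1 FPKM in WT and 8.88, 9.49 and 13.4 FPKM in MUT. The part of these marker lists in the results below was not tested. The theca, stroma and blood list summed to between 2.99 and 11.9 FPKM. All FPKM values of a library summed to 1167362 to 1226005 for WT, 589617 to 611597 for MUT, 482314 to 684212 for GcKO and 883256 to 1107925 for AmcKO, whereas median-of-ratios factors lay between 1.011 and 1.032. The value of a single fragment, read from the steps between low values and relative to MUT replicate 2, was 2.28 to 2.66 for WT, 1 to 1.21 for MUT, 0.901 to 1.50 for GcKO and 1.21 to 1.50 for AmcKO, so that low transcripts are less precise in WT. A value of 0 can also be a failed estimate, since 8 of 84 ribosomal protein genes were listed at 0 in every library. RNA per oocyte was not measured, so a change in the share of a transcript and a change in the oocyte's whole RNA cannot be told apart.

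The 50 members spanned a wide range of levels. Only 3 had a mean of at least 50 FPKM over the 12 libraries, namely B4galt4 at 497, Chsy1 at 133 and C1galt1c1 at 86.3 FPKM. A further 8 had means from 5 to 50 FPKM, 20 from 1 to 5 FPKM and 19 under 1 FPKM. The median member had a mean of 1.53 FPKM, against 3.35 FPKM for all genes tested, and 26 members were above 0 in all 12 libraries. The 56 matching genes below the minimum included 32 that were listed at 0 throughout. Among them were Mgat2, the GlcNAc-transferase that opens the other arm of a complex N-glycan, with 0.615 FPKM in 1 library and 0 in the other 11, and the linker enzyme B4galt7, listed at 0 in all 12.

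Sequence upstream of the start site is shown for a pair of members that fell, B4galt4 and Chsy1, and for a pair that were higher in GcKO, Ext2 and B3gnt7, so that promoters of both directions can be read side by side. These are the 250 bases before the RefSeq start site in GRCm38.p6, 5′ to 3′ on the gene's own strand. Capitals mark matches, on either strand, to a CCAAT box (CCAAT), a GC box (GGGCGG), an E-box (CACGTG), a NOBOX element (TAATTG), the core of the unfolded protein response element (TGACGTG), an ATF4 composite element (TGATGNAAN) or an ERSE. The CCAAT box is also part of the ERSE, and no other pair of these motifs overlaps in the windows shown.
B4galt4, chr16:38742009-38742258 (forward strand): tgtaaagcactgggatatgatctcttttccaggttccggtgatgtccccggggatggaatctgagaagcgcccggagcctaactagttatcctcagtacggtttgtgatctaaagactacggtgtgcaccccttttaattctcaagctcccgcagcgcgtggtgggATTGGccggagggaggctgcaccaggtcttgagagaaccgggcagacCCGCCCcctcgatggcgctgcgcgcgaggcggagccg
Chsy1, chr7:66109242-66109491 (forward strand): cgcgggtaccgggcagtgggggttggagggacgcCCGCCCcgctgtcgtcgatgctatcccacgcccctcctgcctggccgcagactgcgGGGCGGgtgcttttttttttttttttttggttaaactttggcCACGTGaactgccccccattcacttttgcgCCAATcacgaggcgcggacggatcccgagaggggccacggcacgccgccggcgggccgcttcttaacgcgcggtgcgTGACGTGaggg
Ext2, chr2:93822569-93822818 (reverse strand): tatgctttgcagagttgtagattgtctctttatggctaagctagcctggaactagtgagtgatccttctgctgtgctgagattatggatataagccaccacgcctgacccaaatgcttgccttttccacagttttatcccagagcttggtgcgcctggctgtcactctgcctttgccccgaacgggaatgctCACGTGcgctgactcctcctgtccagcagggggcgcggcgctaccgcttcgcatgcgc
B3gnt7, chr1:86302971-86303220 (forward strand): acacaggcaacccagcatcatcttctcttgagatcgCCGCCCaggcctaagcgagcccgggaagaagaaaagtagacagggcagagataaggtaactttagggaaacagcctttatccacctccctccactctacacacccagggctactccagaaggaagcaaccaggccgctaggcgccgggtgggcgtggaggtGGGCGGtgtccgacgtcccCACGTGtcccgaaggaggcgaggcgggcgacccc
Matches were found in members of both directions. A CCAAT box and a GC box lay upstream of both B4galt4 and Chsy1, and these occurred in 33.8% and 32.7% of all 32851 windows. The E-box, present in 6.02% of all windows, lay upstream of Chsy1, which fell, and of Ext2 and B3gnt7, which were higher in GcKO. The core of the unfolded protein response element, present in 1.65% of all windows, lay 11 bases before the start site of Chsy1. The NOBOX element (7.17% of all windows), the ATF4 composite element (3.44%) and the ERSE (0.113%) were not found in these 4 windows. A window was found for 39 of the 50 members, and a GC box lay in those of 31 of them (79.5%), against 35.4% of all 27025 genes in the reference, which include genes that oocytes do not express. The 57 windows of these members had a median of 59.2% G and C, against 52.4% for all windows. The members had 57 windows for 39 genes, and the reference 32851 for 27025. The part of G and C content and of window number in the GC box share was not tested. No window was found for C1galt1c1 and Extl3.

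The first comparison asked how MUT and GcKO oocytes differed from WT oocytes, and both use the same 3 WT libraries. In MUT oocytes, 3 members were higher (B3gnt7, Extl1 and Extl3) and 4 were lower (B4galt4, C1galt1c1, Chsy1 and Mgat4c) at a limma adjusted p under 0.05. Of all 11233 genes, 9.46% were called higher and 11.3% lower in this comparison, so the members' counts, 6% and 8% of the 50, were near the background. In GcKO oocytes, 5 members were higher (B3gnt7, B4galt2, Ext2, Extl1 and Fut8) and 3 were lower (B4galt4, C1galt1c1 and Chsy1), against 8.71% and 11.4% of all genes. The median log2 fold change over the members was 0.26 in MUT and 0.41 in GcKO, beside 0.12 for all genes tested in both. All genes with a mean from 1 to 5 FPKM, where the median member lies, had medians of 0.33 and 0.37. After quantile normalization the members' median was -0.044 in MUT and 0.096 in GcKO, beside 0.029 and 0.026 for all genes. After loess over abundance it was -0.039 and 0.11, beside -0.0033 and -0.0018. The minimum of 1 FPKM was met in no WT library by 14 of the 50 members, and in no MUT, GcKO or AmcKO library by 9, 10 and 9. B3gnt7, Extl1 and Extl3 are among the 14, so they became members through groups in which they were higher, and their differences from WT are given as a description. A log2 fold change here is a difference of log2(FPKM + 1), and for low transcripts it is smaller than the change in FPKM. The share of members called depended on how the libraries were scaled. With every library brought to the same FPKM sum, which moved the median of all genes to 0.69 in MUT and 0.72 in GcKO, 17 members were called higher and 2 lower in MUT and 27 higher and 2 lower in GcKO. Of all genes, 41.3% were called higher and 2.25% lower in MUT under that scaling, and 42.4% and 2.15% in GcKO.

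**Figure D1:**
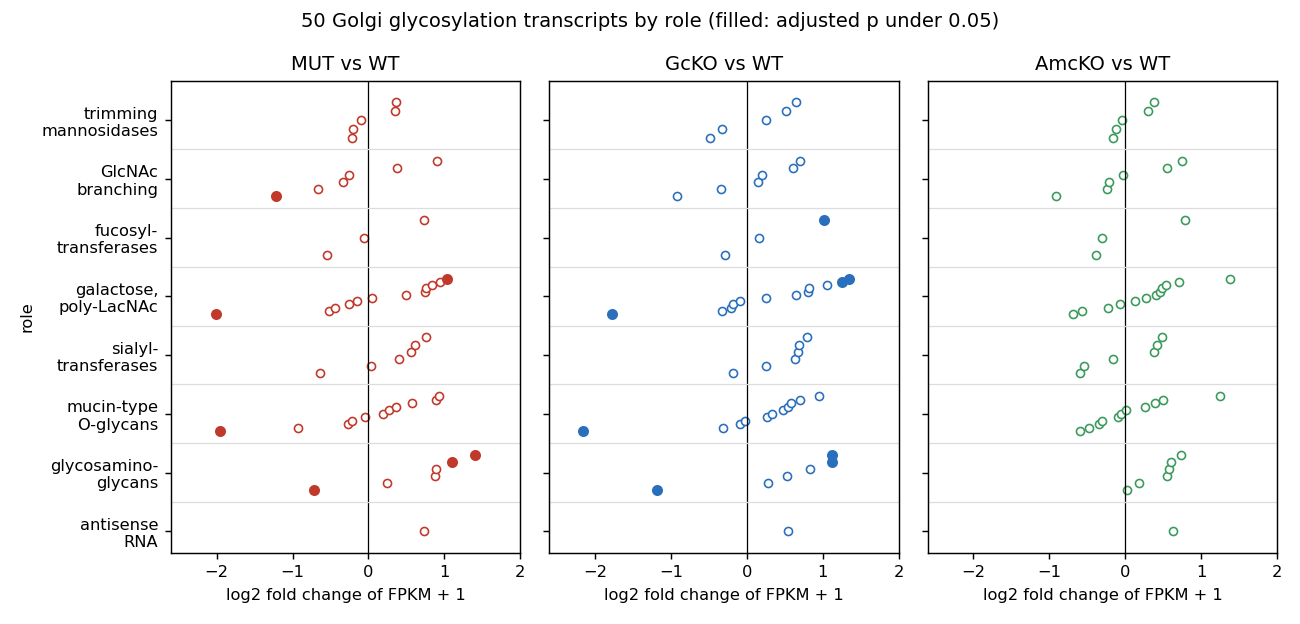
Each point is 1 of the 50 members, grouped by role on the y axis, with its log2 fold change of FPKM + 1 on the x axis in MUT, GcKO and AmcKO oocytes against WT; filled points passed an adjusted p of 0.05. The lowest points in MUT and GcKO, near a log2 fold change of -2, are B4galt4 and C1galt1c1, and no point is filled in AmcKO.

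The most abundant members fell. B4galt4, a galactosyltransferase of the family that adds beta-1,4-linked galactose to GlcNAc, lies on chromosome 16 from 38742264 to 38769049 and has 7 exons in its longest transcript. WT libraries held 978, 901 and 859 FPKM of it, and MUT libraries 237, 234 and 210 FPKM. The GcKO libraries held 205, 271 and 337 FPKM, and the AmcKO libraries 533, 761 and 442 FPKM. All 6 MUT and GcKO values lay below every AmcKO value, and all AmcKO values lay below every WT value. The log2 fold change was -2.00 ± 0.21 (SE, adjusted p = 9.65e-05) in MUT and -1.78 ± 0.21 (adjusted p = 0.000129) in GcKO, or 4.01-fold and 3.42-fold lower. With every library at the same FPKM sum the log2 fold changes were -1.01 and -0.74, both still called. In AmcKO it was -0.69 ± 0.21 and did not pass (limma, adjusted p = 0.155).

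C1galt1c1 encodes COSMC, the chaperone that the core 1 galactosyltransferase C1GALT1 needs to become active, and lies on the X chromosome from 38630785 to 38635087. Its values were 161, 163 and 155 FPKM in WT and 40.3, 40.2 and 41.3 FPKM in MUT, with no overlap. GcKO oocytes held 28.0, 31.7 and 48.7 FPKM, and AmcKO oocytes 84.4, 151 and 90.2 FPKM. It was 3.86-fold lower in MUT (log2 fold change -1.95 ± 0.23, adjusted p = 0.000124) and 4.45-fold lower in GcKO (-2.15 ± 0.23, adjusted p = 9.25e-05). With libraries at the same FPKM sum the log2 fold changes were -0.96 in MUT and -1.13 in GcKO, both still called. The AmcKO value did not pass (-0.60 ± 0.23, adjusted p = 0.239). Its client, C1galt1, held 1.74, 5.91 and 5.91 FPKM in WT and 2.41, 2.23 and 5.85 FPKM in MUT, and those groups overlapped. The ratio of C1galt1c1 to C1galt1 was 26.3 to 92.2 for WT, 7.06 to 18.0 for MUT, 6.54 to 21.8 for GcKO and 24.0 to 30.3 for AmcKO.

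Chsy1, which polymerises chondroitin, lies on chromosome 7 from 66109515 to 66173798. WT libraries held 192, 170 and 162 FPKM, MUT libraries 106, 117 and 92.9 FPKM, and GcKO libraries 68.6, 90.9 and 70.0 FPKM. AmcKO libraries, at 186, 194 and 153 FPKM, overlapped WT. The fall was 1.65-fold in MUT (log2 fold change -0.72 ± 0.16, adjusted p = 0.0071) and 2.27-fold in GcKO (-1.19 ± 0.16, adjusted p = 0.000307), while AmcKO differed from WT by 0.02 (95% confidence interval -0.30 to 0.35). With libraries at the same FPKM sum, the MUT value turned to 0.27 (adjusted p = 0.183) and the GcKO value shrank to -0.16 (adjusted p = 0.437). An antisense gene, Gm26827, shares exon sequence with Chsy1, and no strand setting of the counting is given in the sources used here. In all, 21 members share exons with another annotated gene. Among them are B3gnt7, with the antisense Gm28626, and Fut8, with 9530018F02Rik on the opposite strand.

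**Figure D2:**
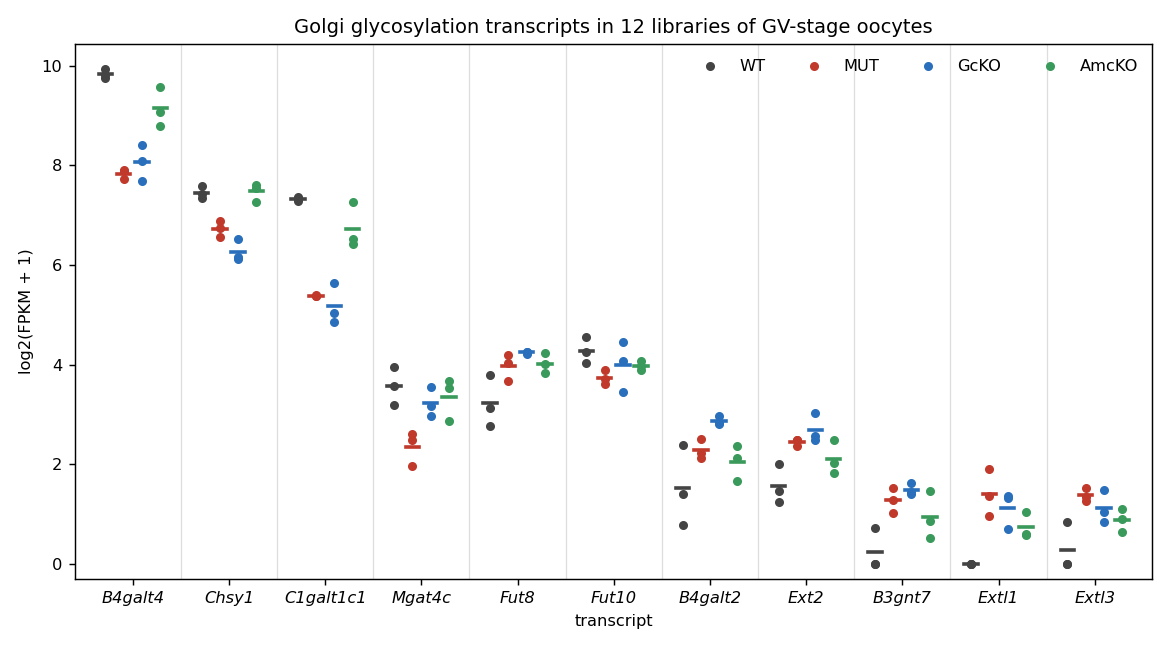
Points show log2(FPKM + 1) of 11 members in each of the 12 libraries, 3 per group, and short lines the group means. B4galt4 and C1galt1c1 separate MUT and GcKO from WT and from AmcKO, while B3gnt7, Extl1 and Extl3 lie near 0 in WT.

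These 3 members made up most of the summed level of the set. Together they were 90.6 to 91.6% of the members' FPKM in WT, 70.2 to 75.0% for MUT, 63.4 to 74.4% for GcKO and 83.8 to 88.5% for AmcKO. The other 47 members summed to 113 to 128 FPKM for WT, 131 to 146 FPKM for MUT, 157 to 174 FPKM for GcKO and 127 to 144 FPKM for AmcKO, so GcKO lay above every other group. Falls of abundant transcripts were common in these libraries. Of the 1362 genes with a mean of at least 50 FPKM, 58.3% were called lower in MUT and 60.2% in GcKO, with median log2 fold changes of -0.70 and -0.74. Chsy1 was close to that median in MUT, whereas B4galt4 and C1galt1c1 were further below it. After the trend of fold change over abundance was removed with a loess curve, B4galt4 was still called lower, though by less (-1.16 on the log2 scale for MUT, -0.87 for GcKO), and so was C1galt1c1 (-1.58 and -1.73). Chsy1 was called lower in GcKO (-0.61, adjusted p = 0.0173) and not in MUT (-0.20, adjusted p = 0.398). The difference between the comparisons was not tested in that fit.

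**Figure D3:**
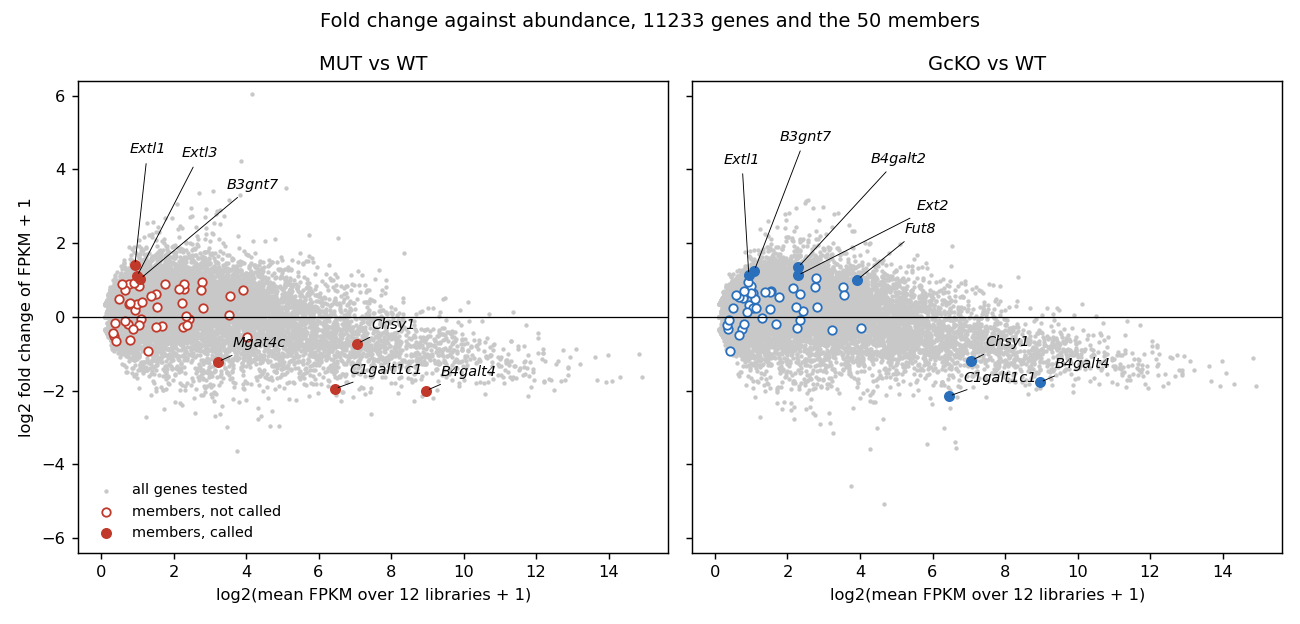
Log2 fold change of FPKM + 1 in MUT and GcKO against WT (y axis) over log2 of the mean FPKM + 1 across the 12 libraries (x axis), for 11233 genes in grey and the 50 members in colour, filled where the adjusted p was under 0.05. Grey points drift below 0 toward the right, and B4galt4 and C1galt1c1 lie near the lower edge of the grey points at their abundance.

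Among the N-glycan enzymes, trimming and branching transcripts were low. The 5 mannosidase members, which cut mannose from the glycan before or after Mgat1 acts, or in lysosomes, had a median mean level of 0.701 FPKM, and none passed the test in any comparison with WT. The highest, Man1c1, held 0, 1.99 and 1.71 FPKM in WT and 0.485, 1.04 and 0.722 FPKM in MUT, with overlapping groups (log2 fold change -0.21, 95% confidence interval -1.02 to 0.60). GcKO libraries held 2.31, 0.942 and 1.12 FPKM of it and AmcKO libraries 1.34, 0.422 and 0.723 FPKM. Of the 6 Mgat members, Mgat4c, a relative of the enzymes that add a GlcNAc branch, was the highest, at 10.8, 8.17 and 14.5 FPKM in WT. It fell to 2.91, 4.60 and 5.11 FPKM in MUT, below every other library of the study (-1.22 ± 0.30, adjusted p = 0.0111). This call was lost without WT replicate 6 (adjusted p = 0.0504) or without MUT replicate 1 (adjusted p = 0.0552), and with libraries at the same FPKM sum (-0.35, adjusted p = 0.336). In GcKO, Mgat4c held 6.85, 7.96 and 10.7 FPKM and overlapped WT (-0.34 ± 0.30, adjusted p = 0.445), and the direct contrast of GcKO with MUT gave 0.87 ± 0.30 (adjusted p = 0.473). AmcKO libraries held 11.8, 10.6 and 6.28 FPKM, also overlapping WT. Mgat1, the enzyme that opens complex N-glycan synthesis, had a mean of 0.851 FPKM and was listed at 0 in 3 libraries of as many groups.

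Of the 3 fucosyltransferases, Fut8, which adds core fucose to N-glycans, rose in GcKO. It held 12.9, 7.76 and 5.83 FPKM in WT and 17.6, 18.1 and 18.1 FPKM in GcKO (1.01 ± 0.26, adjusted p = 0.0133). In MUT, at 15.4, 11.8 and 17.2 FPKM, it overlapped WT (0.73 ± 0.26, adjusted p = 0.0584), and AmcKO, at 13.2, 15.0 and 17.8 FPKM, lay above WT without passing (0.79 ± 0.26, adjusted p = 0.180). Fut10, which belongs by sequence to the alpha-1,3-fucosyltransferases, was at 22.4, 15.5 and 18.1 FPKM in WT and at 11.2, 12.2 and 13.8 FPKM in MUT, a difference that did not pass (-0.55 ± 0.25, adjusted p = 0.138). It held 9.94, 15.7 and 21.0 FPKM in GcKO and 13.9, 14.6 and 15.7 FPKM in AmcKO.

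In the galactose and poly-LacNAc group, 12 members passed the minimum, and low members stood beside the abundant B4galt4. The other 5 B4galt members summed to 6.29 to 7.44 FPKM for WT, 10.5 to 14.2 FPKM for MUT, 10.6 to 20.5 FPKM for GcKO and 9.96 to 10.6 FPKM for AmcKO. B4galt4 therefore exceeded the rest of its family 115 to 156 times for WT, 14.8 to 22.3 times for MUT, 9.96 to 31.9 times for GcKO and 42.7 to 76.4 times for AmcKO. B4galt2 rose in GcKO, from 0.722, 1.63 and 4.20 FPKM in WT to 6.81, 6.10 and 6.00 FPKM (1.35 ± 0.37, adjusted p = 0.0184). It held 4.65, 3.69 and 3.35 FPKM in MUT and 4.15, 2.18 and 3.36 FPKM in AmcKO, both overlapping WT. Its exons overlap those of Slc6a9 on the opposite strand, whose group means were 5.56 FPKM in WT, 13.5 in MUT, 11.8 in GcKO and 5.56 in AmcKO, and without a strand setting the reads of the 2 genes cannot be told apart. The B4galt2 call was lost without any one of WT replicates 4 and 5 and GcKO replicates 1 and 2, with adjusted p-values up to 0.0734. B3gnt7, which extends poly-LacNAc chains, was at 0, 0 and 0.653 FPKM in WT, at 1.86, 1.43 and 1.04 FPKM in MUT and at 1.66, 2.07 and 1.72 FPKM in GcKO, with log2 differences from WT of 1.03 ± 0.33 and 1.25 ± 0.33. AmcKO libraries held 0.430, 0.812 and 1.74 FPKM. In MUT it was no longer counted as higher when any 1 WT or MUT library other than WT replicate 6 was left out.

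No sialyltransferase passed in any comparison with WT, with 5 of the 6 members positive in MUT and in GcKO. Of all genes tested, 55.9% were positive in MUT and 55.7% in GcKO, and a shared rise of the 6 was not tested. The highest was St3gal6, which sialylates galactose ends, at 1.17, 2.66 and 6.82 FPKM in WT and 4.82, 3.62 and 7.53 FPKM in GcKO (0.63 ± 0.40, adjusted p = 0.299). MUT libraries held 3.25, 3.53 and 2.43 FPKM of it and AmcKO libraries 3.76, 4.99 and 4.89 FPKM. Among the 11 mucin-type O-glycan members, C1galt1c1 was the only call. The 7 Galnt members, which start these chains by adding GalNAc, summed to 11.7 to 15.0 FPKM for WT, 14.2 to 17.2 FPKM for MUT, 15.0 to 20.9 FPKM for GcKO and 13.6 to 14.7 FPKM for AmcKO.

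The 6 glycosaminoglycan members held the abundant Chsy1 beside low heparan sulfate enzymes. Ext1 and Ext2 encode the subunits that together polymerise heparan sulfate. Ext1 held 4.40, 6.08 and 4.75 FPKM in WT and did not pass in MUT (0.25 ± 0.30, adjusted p = 0.605) or in GcKO (0.28 ± 0.30, adjusted p = 0.556), with overlapping groups. Ext2 held 3.00, 1.35 and 1.74 FPKM in WT and 4.92, 7.12 and 4.59 FPKM in GcKO (1.13 ± 0.30, adjusted p = 0.0163), a call lost without GcKO replicate 2 (adjusted p = 0.0642). In MUT it held 4.14, 4.59 and 4.63 FPKM, above every WT value, and missed the threshold (0.88 ± 0.30, adjusted p = 0.0505). AmcKO libraries held 4.59, 2.53 and 3.09 FPKM of Ext2. Extl1, an EXT-like GlcNAc-transferase, was listed at 0 in all 3 WT libraries, at 0.935, 1.55 and 2.72 FPKM in MUT, at 1.50, 0.623 and 1.55 FPKM in GcKO and at 0.518, 0.488 and 1.05 FPKM in AmcKO. In GcKO it was not counted as higher without GcKO replicate 1 or without GcKO replicate 3. Extl3, which starts heparan sulfate chains, was at 0, 0 and 0.799 FPKM in WT and at 1.89, 1.39 and 1.55 FPKM in MUT, a log2 difference of 1.10 ± 0.32. It held 0.787, 1.78 and 1.05 FPKM in GcKO and 0.872, 1.15 and 0.563 FPKM in AmcKO. In MUT, Extl3 was not counted as higher when any 1 WT or MUT library other than WT replicate 6 was left out. Under quantile normalization or loess over abundance, the GcKO calls of B4galt2 and Ext2 were lost, with adjusted p-values from 0.0564 to 0.0974, and neither B3gnt7 and Extl3 in MUT nor B3gnt7 and Extl1 in GcKO met the threshold. The values of B3gnt7, Extl1 and Extl3 lie near the value of few fragments, and the members listed at 0 numbered 9 to 14 for WT, 4 to 5 for MUT, 2 to 8 for GcKO and 4 to 5 for AmcKO libraries.

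AmcKO oocytes, in which by design granulosa cells and not oocytes lose Dpagt1, served as a second reference. None of the 50 members was called between AmcKO and WT by limma, where 0.214% of all genes were called in either direction. At an unadjusted limma p under 0.05 there were 6 members, 3 of them higher and 3 lower. The share of all genes at that unadjusted p is not given here, so this count has no background beside it. Against AmcKO, the 3 abundant members were again the calls. In GcKO, B4galt4 (-1.08 ± 0.21, adjusted p = 0.00799), C1galt1c1 (-1.55 ± 0.23, adjusted p = 0.00198) and Chsy1 (-1.21 ± 0.16, adjusted p = 0.00134) were lower and no member was higher, against 4.79% and 0.668% of all genes. In MUT, B4galt4 (-1.31 ± 0.21, adjusted p = 0.00211), C1galt1c1 (-1.35 ± 0.23, adjusted p = 0.00363) and Chsy1 (-0.75 ± 0.16, adjusted p = 0.0148) were lower and none was higher, against 5.07% and 1.42% of all genes. The Chsy1 call was lost without MUT replicate 1 or 3 or without AmcKO replicate 4 or 5, with adjusted p-values up to 0.0715, and it was lost under 10 of 18 alternatives in all. B4galt4 was no longer called between GcKO and AmcKO with the same FPKM sum (adjusted p = 0.0571), after quantile normalization (0.0885), after loess over abundance (0.0651) or without the variance trend (0.0524). When only the GcKO and AmcKO libraries entered the fit, no member was called between them, and B4galt4, C1galt1c1 and Chsy1 had adjusted p-values of 0.165, 0.143 and 0.108. The AmcKO and GcKO comparisons with WT share the WT libraries, and the comparisons with AmcKO share those of AmcKO. The comparisons of MUT and GcKO with AmcKO follow the library numbers just as those with WT do.

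No member was called between GcKO and MUT by limma, where 0.205% of all genes were. At an unadjusted limma p under 0.05 there were 2 members, Chsy1 and Mgat4c. The share of all genes at that unadjusted p is not given here. Chsy1 was lower in GcKO in all 3 libraries than in any MUT library (-0.46 ± 0.16, adjusted p = 0.502). The B4galt4 difference was 0.23 (95% confidence interval -0.18 to 0.63) and the C1galt1c1 difference -0.20 (-0.65 to 0.25).

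**Figure D4:**
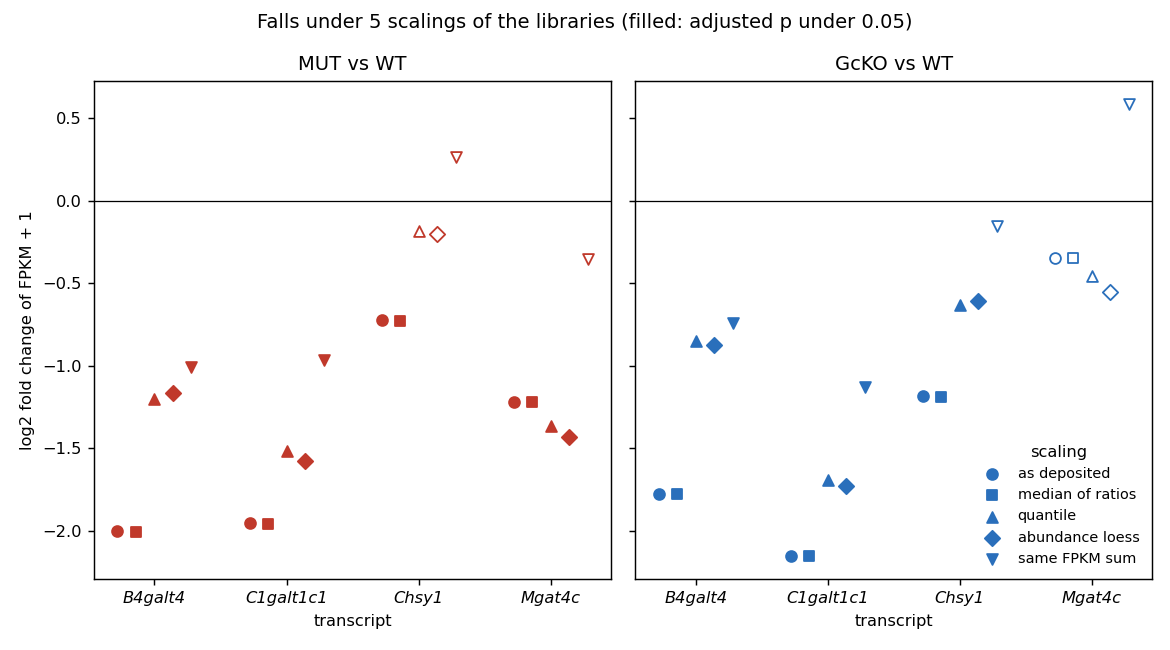
Log2 fold change of FPKM + 1 (y axis) of B4galt4, C1galt1c1, Chsy1 and Mgat4c in MUT and GcKO against WT under 5 scalings of the libraries, filled where the adjusted p was under 0.05. B4galt4 and C1galt1c1 are filled and below 0 under every scaling, and Chsy1 in MUT and Mgat4c in GcKO cross 0 when libraries are brought to the same FPKM sum.

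Genes that supply or surround these enzymes were counted from 5 lists outside the members. Of 10 tested genes of endoplasmic reticulum trimming and quality control, none passed in MUT and 3 rose in GcKO, where 8.71% of all genes rose. These were Ganab, a subunit of glucosidase II (1.27 ± 0.36), and the mannosidase-like Edem2 (1.10 ± 0.27) and Edem3 (1.11 ± 0.30), named after their values were seen. Edem3 was at 0.247, 0.279 and 0.240 FPKM in WT, so it met the minimum only through groups in which it was higher. Its difference from WT is given as a description. After loess over abundance Ganab (adjusted p = 0.118) and Edem3 (0.0923) were no longer called. Of 17 genes of sugar-nucleotide synthesis, only Gnpnat1, an enzyme of UDP-GlcNAc synthesis, passed, where 11.3% of all genes were lower in MUT and 11.4% in GcKO. It held 90.3, 92.0 and 71.5 FPKM in WT, 59.4, 48.8 and 46.6 FPKM in MUT and 31.1, 48.4 and 42.7 FPKM in GcKO, beside 60.7 to 79.2 FPKM for AmcKO (-0.70 ± 0.20, adjusted p = 0.0218 in MUT, and -1.05 ± 0.20, adjusted p = 0.00215 in GcKO). With libraries at the same FPKM sum its values were 0.28 (adjusted p = 0.248) and -0.029 (adjusted p = 0.934). Of 12 nucleotide-sugar and sulfate-donor transporters, none passed in MUT and Slc35a4, also named after its value was seen, rose in GcKO (0.72 ± 0.22, lost after loess over abundance with adjusted p = 0.158). Of the 4 tested subunits of the COG complex, which recycles Golgi enzymes, Cog8 was called in MUT, GcKO and AmcKO alike. It was listed at 0 in every WT library and held 1.76 to 2.91 FPKM for MUT, 2.18 to 2.80 FPKM for GcKO and 2.65 to 3.81 FPKM for AmcKO, so it met the minimum only through the groups in which it was higher.

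Among 18 tested Golgi transferases outside the symbol rule, 2 rose and 3 fell in MUT, and 1 rose and 2 fell in GcKO. The shares of all genes called higher and lower were 9.46% and 11.3% in MUT and 8.71% and 11.4% in GcKO. Chst7, a sulfotransferase that acts on chondroitin, was the most abundant of those called and fell with Chsy1. It held 286, 292 and 301 FPKM in WT, 122, 96.5 and 112 FPKM in MUT, 99.1, 135 and 162 FPKM in GcKO and 179, 242 and 121 FPKM in AmcKO (-1.41 ± 0.23, adjusted p = 0.000926 in MUT, and -1.18 ± 0.23, adjusted p = 0.00295 in GcKO). With libraries at the same FPKM sum these became -0.42 (adjusted p = 0.0494) and -0.14 (adjusted p = 0.494). Ugcg, which makes glucosylceramide, separated MUT from all other groups. It held 5.00, 3.85 and 4.19 FPKM in MUT, 11.8, 14.9 and 12.3 FPKM in WT, 14.3, 11.8 and 13.3 FPKM in GcKO and 11.8, 21.5 and 12.8 FPKM in AmcKO. It was lower in MUT than in WT (-1.39 ± 0.24, adjusted p = 0.00138) and higher in GcKO than in MUT (1.40 ± 0.24, adjusted p = 0.0328). With libraries at the same FPKM sum the difference from WT was -0.51 (adjusted p = 0.125) and that from GcKO was still called.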

How the data were processed

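The authors sequenced 12 libraries, each amplified by Smart-seq2 from 20 GV-stage oocytes. The labels name a NEBNext kit for the libraries and the study's design text a KAPA kit. The authors' notes name TopHat2 2.0.13, the mm10 genome, Cufflinks 2.2.1, Cuffnorm and Cuffdiff, and the authors deposited 1 FPKM column per library. The 18 further deposited columns hold the authors' own results of 6 comparisons and were not used, and 0 library columns were left unmapped. FPKM values hold no counts, so depth per library is unknown and no counting interval is given. The gene annotation and strand setting behind them are not given in the sources used here, so values of genes with shared exons are uncertain.

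Differences were estimated by limma 3.58.1 (R 4.3.3) from log2(FPKM + 1) of the 11233 genes that reached 1 FPKM in any library, and the variance was modelled as a trend over abundance. A single fit held the 12 libraries, leaving 8 degrees of freedom, and 6 contrasts were drawn from it. Adjustment was by Benjamini and Hochberg over all genes tested. Groups came from the labels. No 2 libraries held identical values. On simulated data with normal noise over 11233 genes, 4-fold changes were recovered at a rate of 73% and 2-fold changes at 22%, with 3 of the unchanged genes called. Far fewer genes were changed there than were called between MUT and WT (1063 higher and 1269 lower). The rates therefore need not hold for that comparison. Tables were made with Python 3.11.15 and pandas 2.3.3. Gene positions are from GENCODE M21 (GRCm38) and promoter sequences from RefSeq (GRCm38.p6).

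Members given with values in every library were those called in any contrast, the most abundant of each role group, and Dpagt1. Up to 2 called genes of each related list with the largest change in MUT were also named. The members and all gene lists were chosen with earlier results of these data known. Alternatives were another pseudocount, filter, scaling, variance model, set of libraries, loess correction, threshold, the label number as a block, and each library left out in turn. The loess correction over transcript length was added after seeing the data.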

Additional observations from a re-analysis of the deposited data

How the results depend on the processing

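B4galt4 and C1galt1c1 were called lower in MUT and in GcKO against WT under all 18 alternatives each, with log2 fold changes from -2.05 to -1.01 and -1.97 to -0.96 in MUT and from -1.95 to -0.74 and -2.38 to -1.13 in GcKO. Against 3 members called higher in MUT, 6 were called with a pseudocount of 0.1, 5 without the variance trend, 17 with the same FPKM sum, and 1 each with a mean FPKM of at least 5, quantile normalization, loess over abundance, loess over transcript length or an adjusted p under 0.01. Against 4 called lower, 2 were called with the same FPKM sum. In GcKO, against 5 called higher, 27 were called with the same sum, 3 when only GcKO and WT entered the fit, and 1 each with a mean of at least 5, quantile normalization or loess over abundance. By limma at an adjusted p under 0.01, 0 of 50 were called higher. At an unadjusted limma p under 0.05, 10 had been higher, and the share of all genes at that p is not given here. With the same sum, 12 members were called higher in GcKO and 4 in MUT against AmcKO, where 22.2% and 21.4% of all genes were, and with only GcKO and AmcKO in the fit 0 were lower. For alternatives other than the same sum, those leaving out a library included, the share of all genes called is not given here. Their counts of members therefore have no background beside them.

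With the same FPKM sum, Chsy1 in MUT turned to 0.27, Mgat4c in GcKO to 0.59 and Mgat4c in AmcKO to 0.053. Chsy1 in AmcKO, near 0 throughout, was -0.075 after loess over transcript length. The cause was not tested. Leaving out 1 library gave 1 to 5 members higher and 3 to 5 lower in MUT, 3 to 7 higher and 3 to 4 lower in GcKO, 2 to 4 lower in MUT against AmcKO, and AmcKO values of -0.044 to 0.128 for Chsy1 and -0.40 to 0.035 for Mgat4c. The label number as a replicate block could be fitted for AmcKO with WT and for GcKO with MUT, where 0 members were called with or without it and the members' median log2 fold change was 0.16 and 0.12. Libraries with the same number deviated together with correlations of -0.041 to 0.041, and those with different numbers with -0.057 to 0.071. No pairing by number was seen, which does not show that there was none. A single fragment weighs most in WT, which limits what can be said of members under 1 FPKM.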
